A study of Mus musculus with 4 samples.

Results

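The mouse immunoglobulin kappa variable (Igkv) segments were examined in a CTCF profile of whole testis. Members were taken by name and position: every RefSeq gene on chromosome 6 whose symbol starts with Igkv, which gave 162 of 49599 RefSeq genes, 102 of them annotated as V segments and 60 as V segment pseudogenes. CTCF was profiled by chromatin immunoprecipitation and sequencing (ChIP-seq) in testes of F1 (B6xCAST) mice, with 2 immunoprecipitated samples and 2 input samples. All values come from 1 deposited, merged peak list with 51871 peaks, which carries no value per sample. No spread between animals, no replicate check and no test between groups can therefore be given. The read depth behind the peaks is also unknown. The samples are whole testes that were thawed in fixative and dissociated, with no sort, so germ cells, somatic cells and any resident lymphocytes were measured together. No age of the mice is given in the labels. A peak list holds no expression, so the tissue label was not checked against marker genes.

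In developing B cells, 1 of many Igkv segments is joined to an Igkj segment by the recombinase RAG, and together with the constant region Igkc it then encodes the kappa light chain. CTCF is a zinc-finger protein that, with cohesin, stops and anchors chromatin loops. In B cell precursors it is known to bind between the V and J segments of this locus, in elements called Cer and Sis, which hold back recombination of the V segments closest to Igkj1. Testis cells outside the B lineage do not use the kappa chain, so in them the locus is not being rearranged. Any resident B lineage cells were not told apart, and rearrangement was not measured.

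The segments ran from the first base of Igkv2-137 at 67555636 to the last base of Igkv3-1 at 70704177 on chromosome 6 of the mm10 build, a stretch of 3.149 Mb. They belong to 20 families by name, and their annotated lengths were 49 to 1167 bp, with a median of 525.5 bp. Igkj1 lies beyond Igkv3-1, starting at 70722562, and Igkc ends at 70726754. A peak was assigned to a segment when its summit lay within 1 kb of either annotated end, and all peaks from 100 kb before Igkv2-137 to 100 kb after Igkv3-1 were also taken. This interval of 3.349 Mb held 34 peaks. Of these, 24 lay between the outermost segments, 3 in the 100 kb before them and 7 in the 100 kb after.

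CTCF was nearly absent from the ends of Igkv segments. Only Igkv8-19, a V segment at 70340876 to 70341448, had a summit within 1 kb of an end. That summit, at 70342348, lay 900 bp beyond the segment. Its fold enrichment over background was 3.39, which only 6.36% of all deposited peaks lie below, and its −log10 q was 4.90. Just outside the 1 kb window, the next nearest summits lay 1.23 kb from Igkv13-84 and 1.37 kb from Igkv13-85. The share was thus 1 of 162 segments, or 0.617% (exact 95% Clopper-Pearson interval 0.0156 to 3.39%, which covers counting error only). Among all RefSeq genes 24.1% had such a summit, among protein-coding genes 38.6% and among ordinary pseudogenes 5.23%. Igkv segments are short (median 525.5 bp), so the windows at both ends of a segment overlap. They thus cover less sequence than the windows of longer genes, and the shares were not adjusted for this. By kind of segment, the counts were 1 of 102 V segments and 0 of 60 pseudogenes, for which the interval reaches 5.96%. Neighbouring segments share summits and sequence, so they are not independent and these intervals are too narrow.

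Most segments lay far from any CTCF summit. The distance from a segment end to the nearest summit had a median of 44.3 kb and ran from 0.900 to 264 kb. For all RefSeq genes the median was 7.08 kb. It was 50.2 kb for V segments and 43.0 kb for pseudogenes. A summit lay within 2.5 kb of 8 segments (4.94%, against 34.3% of all RefSeq genes) and within 10 kb of 22 (13.6%, against 55.9%). The nearest summit was over 100 kb away for 32 of 162 segments, against 5340 of 49599 RefSeq genes. The outermost segments were closer than most, since the nearest summit lay 5.90 kb from Igkv2-137 and 5.32 kb from Igkv3-1, in both cases on the outer side. The other 28 annotated genes between the outermost segments, mostly pseudogenes and small RNA genes, had a summit at an end in 1 case. That gene was Gm5309, whose end lay 379 bp from a summit of fold 4.40.

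**Figure D1:**
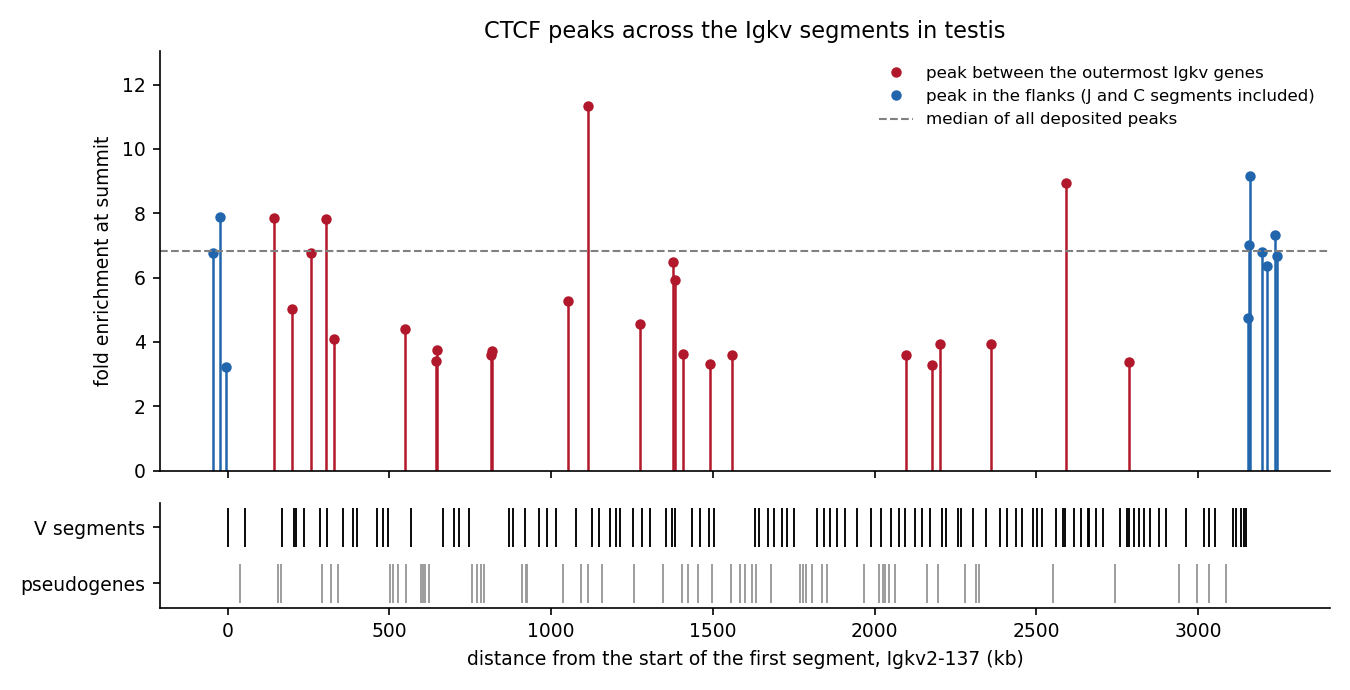
Fold enrichment of each of the 34 CTCF peaks (stems, top) against distance from the first segment in kb, with the V segments and pseudogenes marked below. The dashed line is the median of all deposited peaks, 6.82; most of the 24 peaks between the outermost segments fall below it, and peaks crowd at the end beyond Igkv3-1.

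The stretch of segments was also sparse in CTCF peaks as a whole. Its 24 peaks gave 7.62 per Mb (exact Poisson 95% interval 4.88 to 11.3), against 19.5 per Mb on the rest of chromosome 6 and 20.9 per Mb over the autosomes. The median spacing of its summits was 81.3 kb, against 17.8 kb over the autosomes, and 9 of its 23 gaps exceeded 100 kb, against 10.4% of autosomal gaps. Sparse stretches of this length are not rare on chromosome 6. Of 41 consecutive windows of the interval's length that do not overlap it, 12 held fewer peaks than its 34 and 1 held as many, in a range from 9 to 146 with a median of 62.

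Peaks among the segments were weak as well as few. Their median fold was 4.02 (95% interval of the median 3.60 to 5.94), against 6.90 on the rest of chromosome 6. A fold under 5 was recorded for 15 of 24 peaks, or 62.5%, where 28.1% of all deposited peaks were that low, and 5 of 24 had a −log10 q under 5 (20.8%, against 9.23% of all). They were narrow too, with a median width of 269.5 bp against 534 bp on the rest of chromosome 6. Over the whole interval, flanks included, the median fold was 4.87. Of the 41 other windows along chromosome 6, 1 had a lower median fold, and the windows ranged from 4.54 to 8.23. The windows with the fewest peaks, 9, 10, 12 and 17, had median folds of 8.11, 6.90, 6.01 and 8.23. Whether a low count and a low fold go together along the chromosome was not tested.

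A single peak among the segments exceeded a fold of 10. Its fold was 11.35 and its −log10 q 41.4, higher in fold than 87.8% of all deposited peaks. Its summit at 68668609 lay 2.14 kb on the lower-coordinate side of Igkv2-95-1, a pseudogene at 68670752 to 68671335. The next strongest was far away, at 70147189, 3.03 kb beyond the V segment Igkv8-28, and had a fold of 8.95 (−log10 q 28.5). Another pair stood near the outer end of the locus. The first, at 67699176, lay 12.0 kb from the pseudogene Igkv14-134-1 with a fold of 7.85 (−log10 q 45.7). The second, at 67858143, lay 3.02 kb from the V segment Igkv17-127 with a fold of 7.81 (−log10 q 22.4). These 4 were the peaks among the segments with a fold of at least 7. At the low end stood summits 5.97 kb from Igkv5-48, with a fold of 3.29, and 2.03 kb from Igkv4-79, with a fold of 3.32.

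Peaks were fewer towards the J segments. When the stretch was divided at its midpoint, 69129906, the part with Igkv2-137 held 73 segments and 18 peaks, of which 8 had a fold of at least 5. The part that ends at Igkv3-1 held 89 segments and 6 peaks, of which 1, the peak near Igkv8-28, had a fold of at least 5. Divided into 5 consecutive groups of 32 or 33 segments, the peaks numbered 8, 7, 2, 4 and 2 from Igkv2-137 to Igkv3-1, or 10.7, 10.8, 3.84, 7.26 and 3.34 per Mb, and 1 further peak lay between groups 2 and 3. The median folds of these groups were 4.71, 5.27, 3.46, 3.77 and 6.17, so fold did not fall steadily towards the J segments. The values of groups 3 and 5 rest on 2 peaks each. Segments were packed no more loosely where peaks were few. Group 3, from Igkv13-82 to Igkv4-58, had the most segments per Mb, 61.4, and the longest median distance to a summit, 126 kb.

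**Figure D2:**
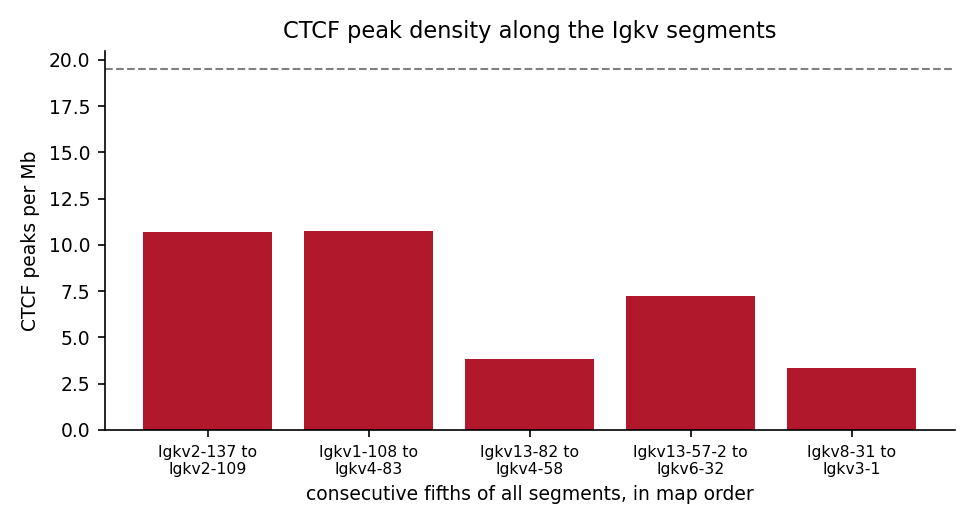
CTCF peaks per Mb (bars) in 5 consecutive groups of 32 or 33 Igkv segments in map order, from Igkv2-137 on the left to Igkv3-1 on the right. The dashed line is chromosome 6 outside the interval, 19.5 per Mb; no group reaches it, and groups 3 and 5 are lowest, at 3.84 and 3.34.

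The 2 longest gaps between summits lay mostly in the part towards the J segments. Between summits at 69113577 and 69651427 lay 538 kb without a called peak, which held 35 segments from Igkv13-76 to Igkv4-53, 17 of them pseudogenes. Gaps of at least that length made up 0.914% of autosomal gaps (459 of 50248). The other, of 367 kb, ran from the summit at 70342348 to the first summit beyond Igkv3-1, at 70709497. It held 19 segments, from Igkv8-18 to Igkv3-1, which are the V segments and pseudogenes closest to Igkj1.

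The 24 summits all lay between segments, which themselves cover only 2.72% of the stretch. The distance from a summit to the nearest segment end had a median of 5.57 kb, from 0.900 to 24.2 kb, and 8 of 24 lay over 10 kb from any segment. Bases within 1 kb of a segment end made up 12.8% of the stretch and held 1 of 24 summits, or 4.17%, with an exact 95% interval of 0.105 to 21.1% that includes 12.8%. The nearest segment was a V segment for 14 summits and a pseudogene for 10.

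Some summits near related segments matched in distance from the segment or in spacing, a pattern picked out after the values were seen. The clearest was in the Igkv4 family, the largest with 33 members. The summits near Igkv4-83, Igkv4-79, Igkv4-77 and Igkv4-53 lay 2226, 2026, 2145 and 2073 bp from the segment, a spread of 200 bp, and all on the higher-coordinate side. Their folds were 3.61, 3.32, 3.59 and 3.60, and their −log10 q values 8.79, 3.79, 4.86 and 4.29. All but the first were thus among the 5 peaks of the stretch with a −log10 q under 5. Igkv4-83 and Igkv4-77 are pseudogenes, and Igkv4-79 and Igkv4-53 are V segments. The other Igkv4 members had no called summit within 10 kb, so a summit was called at about this distance for 4 of 33. Without the strand, it could not be told whether these 4 summits lie on the same side, upstream or downstream, of their segments.

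A second case involved pairs of summits in the part before the midpoint, which matched in spacing and not in distance from a segment. Summits at 68198232 and 68201642, between Igkv2-113 and Igkv2-112, were 3410 bp apart with folds of 3.39 and 3.76. Summits at 68370216 and 68373616, beyond Igkv2-105, were 3400 bp apart with folds of 3.60 and 3.72. Both pairs lay 18.3 to 24.2 kb from the nearest segment, which in each case was an Igkv2 member. They were the only neighbouring summits among the segments within 5 kb of each other. Igkv13-85 and Igkv13-84 were neighbours, with a summit near each in the space between them. These summits lay 1365 bp beyond Igkv13-85 and 1232 bp before Igkv13-84, with folds of 6.47 and 5.94. They were on opposite coordinate sides of their segments, and without the strand it could not be told whether the positions match. Whether reads from near-identical copies were placed correctly at these sites was not tested, and no genome sequence of the region was used.

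**Figure D3:**
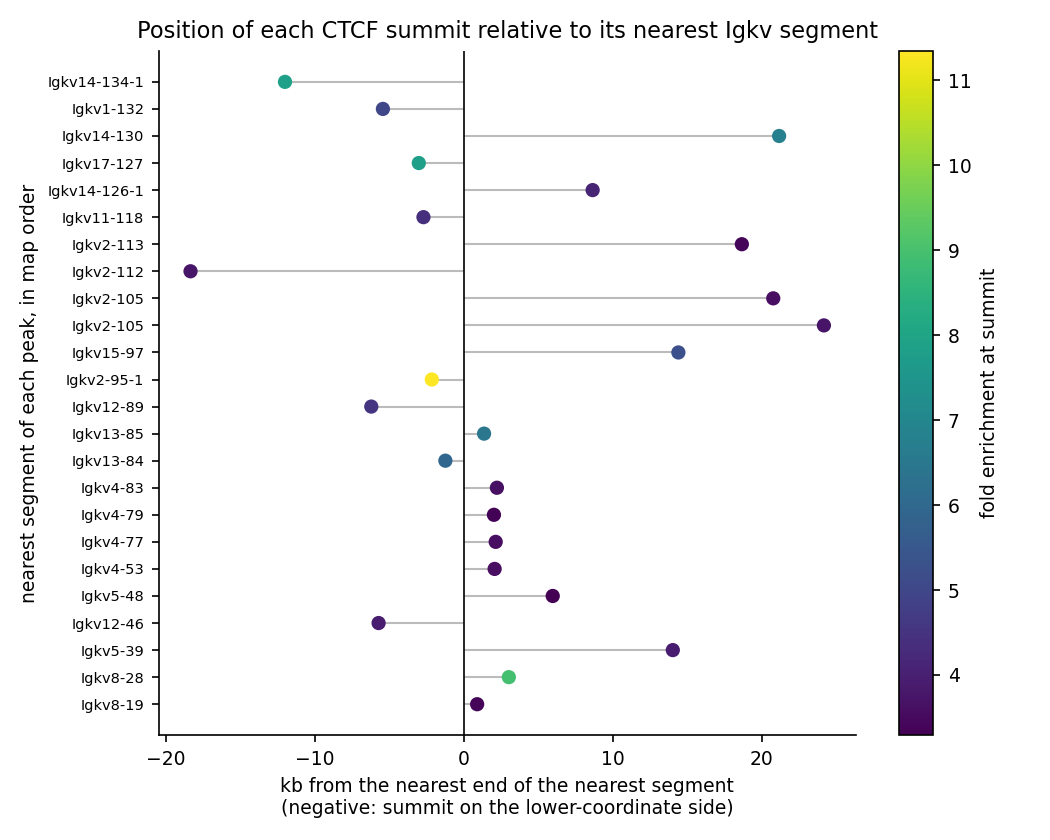
Distance in kb from each of the 24 CTCF summits between the outermost segments to the nearest end of its nearest segment, one row per peak in map order, coloured by fold. Negative values are on the lower-coordinate side. The 4 Igkv4 rows line up at 2026 to 2226 bp, and the row of fold 11.35 is Igkv2-95-1.

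By family, most segments had no CTCF nearby. Only Igkv8-19 of the 13 Igkv8 members had a summit at an end, and none of the other 19 families had one. Summits within 2.5 kb were found for 4 of 33 Igkv4, 2 of 19 Igkv13, 1 of 10 Igkv2 and 1 of 13 Igkv8 segments. Among families of at least 10 members, the median distance was shortest for Igkv2, 20.4 kb, and longest for Igkv3, 102 kb. The Igkv2 members were also the nearest segments to the most summits, 5 of 24, and 7 of the 10 are pseudogenes. Igkv3 and Igkv6, with 13 and 9 members, were nearest to none.

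CTCF peaks were denser beyond Igkv3-1 than among the segments. The 100 kb there held 7 peaks, or 70.0 per Mb (exact Poisson 95% interval 28.1 to 144), against 19.5 per Mb on the rest of chromosome 6. Of these 7, 4 lay beyond Igkc. In the 18.4 kb between Igkv3-1 and Igkj1 lay 3 peaks, or 163 per Mb with a wide interval of 33.7 to 477. The first had its summit at 70709497, 13.1 kb from Igkj1, with a fold of 4.74 (−log10 q 14.3). The second, at 70713289 and 9.27 kb from Igkj1, had a fold of 7.01 (−log10 q 18.6). The third, at 70714415 and 8.15 kb from Igkj1, had a fold of 9.17 (−log10 q 49.0), the second highest fold of the interval. The last pair were 1.126 kb apart, both inside the lncRNA gene Gm46961, and the peak at 70714415 was 974 bp wide, wider than any peak among the segments (at most 653 bp). This is the part of the locus that holds Cer and Sis, but no coordinates of these elements were at hand and the peaks were not assigned to them.

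The J and C segments themselves carried no summit. The nearest to each of Igkj1, Igkj2, Igkj3, Igkj4, Igkj5 and Igkc was the summit at 70714415, at 8.15 to 9.47 kb for the J segments and 12.0 kb for Igkc. The next summit beyond Igkc, at 70752673, had a fold of 6.79 and lay 983 bp from the lncRNA gene Gm30211. Between these summits lay 38.3 kb without a called peak.

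Peaks among the V segments and pseudogenes were weaker than the other peaks of the interval. Of those others, 3 lay between Igkv3-1 and Igkj1, inside the kappa locus, and the rest before Igkv2-137 or beyond Igkc. The 24 between the outermost segments had a median fold of 4.02, against 6.79 for the 10 outside them, and 9 of 24 had a fold of at least 5, against 8 of 10. The median −log10 q was 7.44 inside and 24.5 outside, and the median width 269.5 bp inside and 516 bp outside. Before Igkv2-137, summits at 67510943, 67531199 and 67549732 had folds of 6.78, 7.88 and 3.23. The last had the lowest fold of the interval with a −log10 q of 20.7, while a peak of nearly the same fold near Igkv5-48, 3.29, had a −log10 q of 4.90. Fold and −log10 q thus ranked these peaks differently. Il23r, a receptor subunit for the cytokine IL-23, had its nearest summit at 67436493, inside the gene, 13.6 kb from an end.

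On the other side the first protein-coding gene is Rpia, which encodes a pentose phosphate pathway enzyme. Its summits at 70768958 and 70792129, both inside the gene, had folds of 6.36 and 7.34, and a last one at 70798044 had a fold of 6.68. The summit at 70792129 lay 46 bp from the end of Rpia where transcription starts. It is the only summit of the interval that falls in a promoter for which RefSeq sequence was at hand, so that promoter is shown (GRCm38.p6, chr6:70792126-70792425, minus strand, 250 bases before to 50 after the start). Capitals mark the 187 bases that the peak covers, and the summit is base 297.
Rpia: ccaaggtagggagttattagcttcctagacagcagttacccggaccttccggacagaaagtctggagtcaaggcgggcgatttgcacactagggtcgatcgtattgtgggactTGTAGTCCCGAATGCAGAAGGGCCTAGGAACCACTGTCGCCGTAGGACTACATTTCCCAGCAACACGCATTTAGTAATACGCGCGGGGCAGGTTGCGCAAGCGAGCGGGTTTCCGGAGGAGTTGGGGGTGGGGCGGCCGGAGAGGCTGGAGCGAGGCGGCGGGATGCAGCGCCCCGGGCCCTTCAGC
The 300 bases hold 24 CG pairs and are 60.7% G and C, against medians of 7 and 52.7% over 32851 RefSeq promoters. A core of the CTCF motif, written CCNNNAGNNGGC and searched on both strands, was not found in this window. It was found in 8.61% of the promoters. The peak is 439 bp wide, and its bases beyond the 187 shown were not searched. Farther out, Eif2ak3, a kinase of the unfolded protein response, had a summit of fold 12.2 at 117 bp from an end, higher than any peak of the interval. No sequence of an Igkv segment was at hand, so none is shown.

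The heavy chain and T cell receptor loci had CTCF closer to their V segments. Ighv, the heavy chain V segments on chromosome 12, had a summit within 1 kb of an end at 36 of 183 (19.7%, interval 14.2 to 26.2%). The Ighv locus was uneven, with distances from 0.001 to 152 kb and 28 segments over 50 kb from a summit, against 74 Igkv segments. Several Ighv1 segments fell only just inside the 1 kb window, such as Ighv1-72 at 0.925 kb and Ighv1-65 at 0.987 kb. T cell receptor V segments had one at 50 of 178 (28.1%, interval 21.6 to 35.3%), made up of 45 of 136 Trav and Trdv, 4 of 35 Trbv and 1 of 7 Trgv segments. The 3 Iglv segments of the lambda light chain had none, and their distances were 61.3 to 114 kb. Median distances to a summit were 44.3 kb for Igkv, 12.5 kb for Ighv, 3.54 kb for Trav and Trdv, and 5.69 kb for Trbv.

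The loci differed in where their summits lay. Within 1 kb of a segment end were 1 of 24 summits for Igkv (4.17%, exact 95% interval 0.105 to 21.1%) and 36 of 55 for Ighv (65.5%, interval 51.4 to 77.8%). For Trav and Trdv the count was 44 of 64 (68.8%, interval 55.9 to 79.8%) and for Trbv 4 of 13 (30.8%, interval 9.09 to 61.4%). These windows covered 12.8% of the Igkv stretch, 17.1% of Ighv, 19.5% of Trav and Trdv and 12.3% of Trbv, so the loci were closer in segment spacing than in the share of summits at segments. Peak density was 7.62 per Mb in Igkv, 22.6 in Ighv, 37.2 in Trav and Trdv and 19.5 in Trbv, and median folds were 4.02, 5.87, 7.68 and 7.23. Long stretches of segments without CTCF were not limited to Igkv: the largest Ighv gap, 313 kb, held 33 segments. With 1 merged list these differences were described and not tested.

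**Figure D4:**
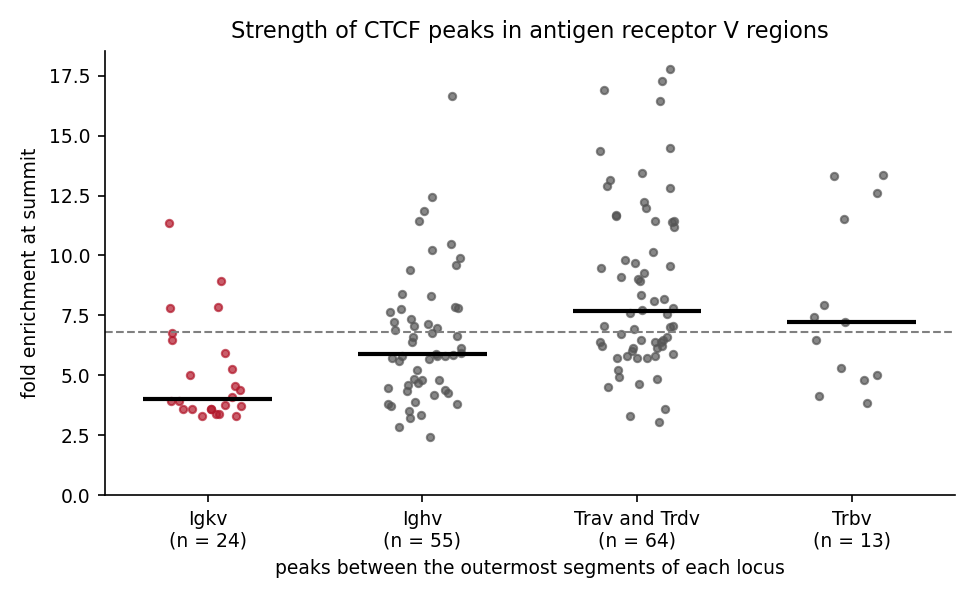
Fold enrichment of each CTCF peak (points) between the outermost segments of Igkv, Ighv, Trav with Trdv, and Trbv, with the median of each as a bar. The dashed line is the median of all deposited peaks, 6.82; the Igkv median is 4.02 and the others are 5.87, 7.68 and 7.23.

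Chosen lists of genes for V(D)J recombination, B lineage regulation and the B cell receptor were also examined. The lists were chosen with earlier results of these data known, so their shares are descriptions and were not tested. The share over protein-coding genes, 38.6%, is the comparison for each list. Of 14 genes for V(D)J recombination and the repair of its breaks, 11 had a CTCF summit within 1 kb of an end (78.6%, exact 95% interval 49.2 to 95.3%, against 38.6% of protein-coding genes). The highest folds were 14.7 at Xrcc6, which encodes the Ku70 end-binding protein, 10.6 at Prkdc, the catalytic subunit of DNA-PK, and 10.5 at Hmgb1, a chromatin protein that aids RAG. Rag1, part of the recombinase, had a summit of fold 5.74 at 391 bp, and its partner Rag2 had its nearest summit at 13.6 kb. Most genes in this group also serve general end joining. Of 16 regulators of the B lineage, 11 had a summit at an end (68.8%, interval 41.3 to 89.0%), led by Pou2f2 with a fold of 13.0, Bach2 with 9.69 and Pou2f1 with 9.14. Pax5, which commits cells to the B lineage, had the lowest, 3.20. None of 12 genes for the B cell receptor, the pre-B receptor and their signalling had a summit at an end (0 of 12, interval up to 26.5%). The closest were Vpreb3, Vpreb1 and Btk, at 1.04, 1.39 and 1.92 kb, and at Btk that summit had a fold of 15.7.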

How the data were processed

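CTCF ChIP-seq of whole testis was analysed from 1 merged peak list. Per the submitters' processing notes, the mm10 build, MACS2 2.2.7 and BWA 0.7.12 belong to the processing, in roles that are not given in the sources used here. The peak names contain both bio2 and merged, and whether 1 or both immunoprecipitated samples entered the list was not settled. For each peak the authors deposited a fold enrichment (a ratio over background at the summit), a −log10 q, and a −log10 p and a score that were not used. These values belong to the authors and served only to describe peaks within this list. The lowest deposited −log10 q was 1.308. Read depth is unknown.

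Genes were placed by a RefSeq table of GRCm38.p6, which shares its chromosome coordinates with mm10. Genes with a start below 3 Mb outside the Y chromosome were left out as scaffold coordinates. Coordinates are 1-based, and the summit is the peak start plus the deposited offset. Distances, shares with exact 95% Clopper-Pearson intervals, densities with exact Poisson intervals and medians with order-statistic intervals were computed with Python 3.11.15, pandas 2.3.3, numpy 2.4.6 and SciPy 1.17.1, after the distance functions were tested on simulated data. Intervals cover counting error only. Medians of fold and counts of peaks depend on the threshold the authors set for calling.

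The members and lists were chosen with earlier results of these data known. Named were the segments with a summit at an end, the outermost segments, the 8 strongest and 3 weakest peaks of the interval, all peaks from Igkv3-1 onwards, flanking genes and the 3 genes of each list with the highest fold at an end. Others were named after their values were seen. Alternatives were windows of 500 bp and 2.5 kb, peaks with fold or −log10 q of at least 5, overlap of the whole peak, V segments or pseudogenes alone, and flanks of 0 or 500 kb. The strand of the segments was not in the table, so the upstream and downstream sides were not told apart. The values of 1 flanking gene are not reported here.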

Additional observations from a re-analysis of the deposited data

How the results depend on the processing

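Of 35 alternatives over 9 results, 21 stayed within the interval of the reported value and 14 did not; those for the listed genes, for V segments and pseudogenes apart, and for peaks between the outermost segments alone were added after the data were seen. The share of Igkv segments with a summit at an end, 0.617%, became 0% with a 500 bp window, with peaks of fold at least 5, with −log10 q at least 5 and among pseudogenes, and 4.94% with a 2.5 kb window, so the single call rests on 1 weak peak. V segments alone, at 0.980%, likewise became 0% with the 500 bp window, fold at least 5 and −log10 q at least 5. Peak density in the interval, 10.2 per Mb, became 15.4 with 500 kb flanks and 5.08 with fold at least 5, and between the outermost segments it became 2.86 with fold at least 5. Median fold became 6.79 in the interval and 6.77 between the outermost segments with fold at least 5, which removes weak peaks by construction. At segment ends it was 3.39 and became 3.61 with the 2.5 kb window. That alternative is counted among the 14, although the reported value rests on 1 peak and so has no interval to be judged against. No peak at an end was left with the 500 bp window or the stricter peak sets. No paired analysis was possible because a single merged list has no per-sample values, and no replicate could be left out for that reason. Since the depth is unknown, the number of weak sites missed in the locus cannot be stated. Whether the reads could be placed uniquely among related segments, and whether CAST reads aligned to the mm10 reference as well as B6 reads, was not tested.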
